A study of Arabidopsis thaliana with 9 samples.

Results

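The WUSCHEL-related homeobox genes (WOX genes) of Arabidopsis thaliana were followed in RNA-seq libraries of 11-day-old seedlings of 3 genotypes. The members were set by gene identifier, with earlier results of these data known. WUS, WOX1, WOX2, WOX3, WOX4, WOX5, WOX8, WOX9, WOX13 and WOX14 are 10 of the 32548 genes in the deposited table. The line al24567 is homozygous for mutant alleles of 5 ALFIN-like genes (AL2, AL4, AL5, AL6 and AL7), whose plant homeodomain fingers read methylated lysine 4 of histone H3. The line ring1a1b is homozygous for mutant alleles of RING1A and RING1B, which encode E3 ligases for histone H2A within Polycomb repressive complex 1. Col-0 is the wild type. Each genotype had 3 libraries of whole seedlings grown on plates of MS medium. The labels give neither the alleles nor whether replicates were separate cultures, so the spread behind each p-value is that between libraries and may be technical.

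WOX proteins are plant transcription factors with a homeodomain, most of which act in small groups of cells that keep meristems or founder cells undifferentiated. Members of the WUS clade carry a short WUS box, through which they recruit co-repressors of the TOPLESS family, and WUS is the founding member, made in the organising centre below the stem cells of the shoot tip. The other members fall into an intermediate clade, which holds the embryo genes WOX8 and WOX9, and an ancient clade, which holds WOX13 and WOX14 and is represented in mosses and algae.

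The sequence of the homeodomain's recognition helix separates the same groups. It is shown for WUS and for the members that passed the test of al24567 against Col-0 described below. Of these, WOX9 passed only at the margin and on few reads. A stretch of 48 bases of the coding strand is given for each, read from the TAIR10.1 reference genome, with the 4 codons for tryptophan, phenylalanine, glutamine and asparagine (W-F-Q-N) of the third helix in capitals.
WUS, chr2:7810378-7810425, minus strand: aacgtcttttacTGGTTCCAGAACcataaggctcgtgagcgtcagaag
WOX2, chr5:23934409-23934456, minus strand: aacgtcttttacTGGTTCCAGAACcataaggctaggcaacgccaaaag
WOX4, chr1:17237288-17237335, minus strand: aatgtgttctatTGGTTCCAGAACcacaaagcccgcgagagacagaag
WOX9, chr2:14343171-14343218, minus strand: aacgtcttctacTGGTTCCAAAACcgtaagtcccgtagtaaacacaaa
WOX13, chr4:16876270-16876317, minus strand: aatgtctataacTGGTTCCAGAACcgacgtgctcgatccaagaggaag
WOX14, chr1:7183558-7183605, plus strand: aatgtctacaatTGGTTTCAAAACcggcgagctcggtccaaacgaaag
Each stretch lies within 1 coding exon. Of its 16 residues, WOX1, WOX4 and WOX5 shared 16 with WUS, WOX2 and WOX3 shared 15, WOX8 and WOX9 shared 11, and WOX13 and WOX14 shared 9. WOX13 and WOX14 shared 16 with each other although 38 of the 48 bases were the same.

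The WUS box, searched as threonine, leucine, any residue, leucine, phenylalanine and proline, was present once in WUS, WOX1, WOX2, WOX3, WOX4 and WOX5. This pattern had no match in WOX8, WOX9, WOX13 or WOX14. The box is shown for the founding member and for the pair of WUS-clade genes that fell in al24567, as 36 bases of the coding strand with the 6 codons of the box in capitals.
WUS, chr2:7809190-7809225, minus strand: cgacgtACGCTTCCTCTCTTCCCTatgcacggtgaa
WOX2, chr5:23933573-23933608, minus strand: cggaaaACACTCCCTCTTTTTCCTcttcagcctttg
WOX4, chr1:17236912-17236947, minus strand: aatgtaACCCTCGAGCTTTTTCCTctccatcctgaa
The box began at codon 254 of 292 in WUS, codon 197 of 260 in WOX2 and codon 240 of 251 in WOX4. It thus stood near the C-terminal end in WUS and WOX4 and further inside the protein in WOX2.

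The recovered read totals ran from 18258434 to 22435655 per library. Values given below are the deposited adjusted read counts, which are reads brought by the authors to a common library size and not divided by gene length. Correlations across genes were 0.9799 to 0.9851 within a genotype and 0.9407 to 0.9673 between genotypes. AL2 transcripts fell by 2.69 ± 0.10 (log2, SE), and those of AL4, AL6 and AL7 also fell, in al24567, while AL5 did not differ beyond its error (-0.06 ± 0.18), so its loss cannot be read from these transcripts. RING1A transcripts averaged 1.33 ± 1.56 in ring1a1b and 148 ± 15.6 in Col-0 (SD, n = 3 each), whereas RING1B transcripts fell by 0.79 ± 0.20, to 60.95 ± 8.97 against 107 ± 23.1. Some of the targeted genes also differed in the other line. By limma, RING1B rose by 0.73 ± 0.20 in al24567 (adjusted p = 0.00663). In ring1a1b, AL4 fell by 0.36 ± 0.10 (0.0173) and AL5 rose by 0.53 ± 0.18 (0.0452). RING1A in al24567 and AL2, AL6 and AL7 in ring1a1b did not pass an adjusted p of 0.05 (limma, 0.569 to 0.89). Shoot meristem, root tip, green leaf and vascular markers all had reads in every genotype, except that the stem cell peptide gene CLV3 and the meristem gene UFO had none in any library.

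The family was unevenly represented. WUS (chromosome 2, 7808871 to 7810811, minus strand, 3 exons) and WOX8 (chromosome 5, 18648886 to 18650836, plus strand, 4 exons), which acts in the basal part of the embryo, had 0 reads in all 9 libraries. A count of 0 allows up to 0.134 to 0.164 CPM, the read count scaled to the library total, from 3 counts, and such limits cover counting error only. Lower levels were not detectable at this depth. WOX3 (also PRS; chromosome 2, 12262013 to 12263595, plus strand, 2 exons), which acts at leaf margins, had 3 reads in all, 1 in al24567 replicate 2 and 2 in ring1a1b replicate 1. These 3 genes were not tested. The other 7 members had a value of 1 or more in 3 libraries and were tested, WOX9 without any al24567 library.

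**Figure D1:**
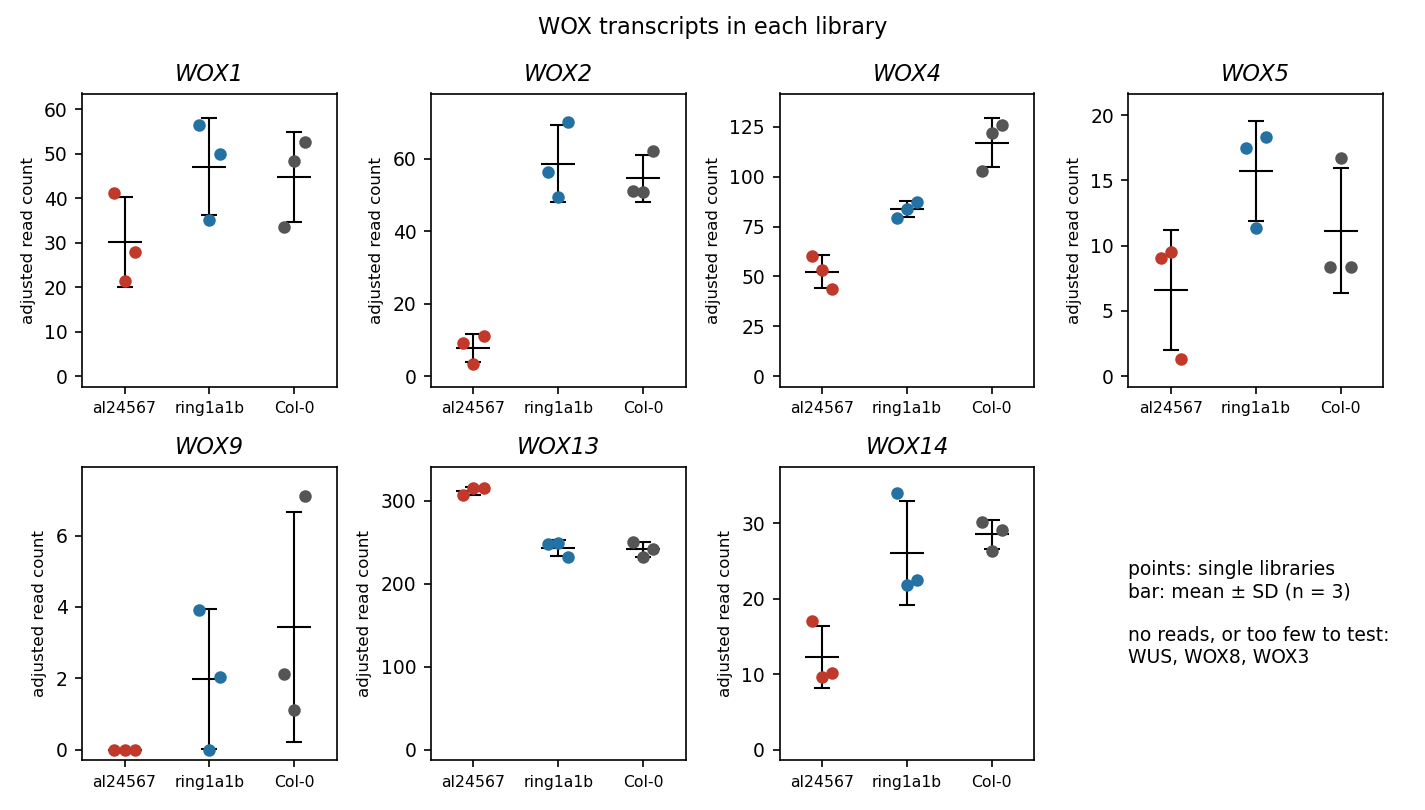
Adjusted read counts of the 7 tested WOX genes in each library of al24567, ring1a1b and Col-0, with a bar for the mean ± SD (n = 3); each panel has its own linear axis. WOX2 lay between 3.30 and 10.9 in al24567, below all other libraries, WOX13 lay between 307 and 315 in al24567, above all other libraries, and WOX9 was at 0 in the 3 al24567 libraries.

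In al24567, WOX2, WOX4 and WOX14 fell and WOX13 rose against Col-0, and WOX9 had no reads in that line. The embryo patterning gene WOX2 showed the largest fall of them that rests on reads in every library, about 7-fold on the log2(value + 1) scale. The share of all 23207 tested genes called in this comparison was 36.3% (17.9% higher and 18.4% lower). Of the 7 tested members 5 were called, a count that includes WOX9, which passed the filter on low values only through Col-0 and ring1a1b. With a filter that WOX9 does not pass, a value of 5 in 3 libraries, 4 of 6 were called. Both counts are descriptions only. A call is a Benjamini-Hochberg adjusted p below 0.05 over all tested genes in the limma fit. WOX2, WOX4 and WOX14 had called falls of at least 2-fold, as did WOX9 on its fitted value. Such falls made up 3.68% of tested genes. The 2-fold cut was not planned and was counted only for falls in this comparison, so no excess is read from it. The libraries of al24567 and Col-0 did not overlap for WOX2, WOX4, WOX13, WOX14 and WOX9, against 46.6% of all tested genes.

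WOX2 (AT5G59340; chromosome 5, 23933338 to 23935050, minus strand, 2 exons) patterns the apical daughter of the zygote and the embryonic shoot. Its adjusted read counts were 9.02, 3.30 and 10.9 in al24567, 56.2, 49.4 and 70.2 in ring1a1b, and 51.0, 50.7 and 62.0 in Col-0. Every al24567 library was below every library of the other genotypes, while ring1a1b and Col-0 overlapped. The log2 fold change in al24567 against Col-0 was -2.79 ± 0.35 (SE; adjusted p = 5.7e-06, limma), or 6.91-fold lower, and kept its call in all 16 alternatives (-3.08 to -2.34). In whole seedlings, fewer cells that make a transcript and less of it per cell cannot be told apart, here and for every member below. The fall stands on 22 reads in al24567 and 169 reads in Col-0.

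Embryo and seed markers overlapped between al24567 and Col-0 in their sum, and their sum was higher in ring1a1b. The summed adjusted counts ran from 3.87 to 52.1 in al24567, 1068 to 3583 in ring1a1b and 10.4 to 15.7 in Col-0, with LEC1 at 0 in both mutants. In al24567, where 36.3% of all tested genes were called, 1 of the 7 tested markers was, the late embryogenesis gene EM1. It stood at 6.18 ± 5.94 against 0 reads in the Col-0 libraries (adjusted p = 0.00786, limma), and its libraries overlapped Col-0. The EM1 call ended when al24567 replicate 1 was left out (0.0605) or only the 2 genotypes were compared (0.078). In ring1a1b, where 17.7% of all tested genes were called, 6 of the 7 rose, among them the seed regulator ABI3 (4.62 ± 0.55, log2) and EM1 (487 ± 145 against 0 reads in the Col-0 libraries). That count is a description only, since the markers CRC, OLEO1 and EM1 passed the filter on low values only with the ring1a1b libraries. EM6, also among the 6 (adjusted p = 0.0179, limma), lost its call without Col-0 replicate 1 (0.0548), Col-0 replicate 2 (0.0961) or ring1a1b replicate 1 (0.102). LEC1 and LEC2, not tested, had 2 and 5 reads in Col-0 and 0 and 1 in ring1a1b. The embryo members of the WOX family in ring1a1b stood at 58.6 ± 10.6 for WOX2, with 54.5 ± 6.47 in Col-0, at 0 reads for WOX8, and at 6 reads for WOX9 over 3 libraries.

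WOX4 (AT1G46480; chromosome 1, 17236524 to 17238185, minus strand) keeps the dividing cells of the vascular cambium, downstream of the peptide receptor PXY. Its adjusted read counts were 60.1, 53.1 and 43.6 in al24567, 79.5, 83.9 and 87.6 in ring1a1b, and 103, 122 and 126 in Col-0. The genotypes did not overlap, with al24567 lowest and ring1a1b between al24567 and Col-0. WOX4 fell by 1.16 ± 0.20 in al24567 against Col-0 (log2, SE; adjusted p = 0.000125, limma), or 2.23-fold. All 16 alternatives kept that call.

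WOX14 (AT1G20700; chromosome 1, 7182558 to 7184056, plus strand) is also active in vascular tissue, where it acts together with WOX4 in dividing vascular cells. The adjusted read counts of WOX14 were 17.0, 9.63 and 10.1 in al24567, 34.1, 21.8 and 22.4 in ring1a1b, and 30.1, 26.4 and 29.1 in Col-0. All al24567 libraries were below the lowest library of the other genotypes, and ring1a1b spread on both sides of Col-0. WOX14 fell by 1.20 ± 0.34 in al24567 against Col-0 (adjusted p = 0.00945), or 2.29-fold, and kept its call in all 16 alternatives. Its neighbour WOX10 starts 428 bases beyond its end, shares 147 residues with it (74.6% of the WOX10 protein) and had 0 reads, so an exchange of reads between the copies cannot be seen in these counts.

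Vascular markers overlapped between al24567 and Col-0 in their sum, while WOX4 and WOX14 fell in al24567. The summed adjusted counts of PXY, HB-8, SMXL5, APL and MOL1 ran from 1868 to 1996 in al24567, 1762 to 1859 in ring1a1b and 1810 to 1899 in Col-0, and 0 of the 5 were called in either mutant by limma (percent of all genes called, 36.3% in al24567 and 17.7% in ring1a1b). PXY itself averaged 685 ± 47.4 in al24567 and 652 ± 16.9 in Col-0.

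WOX9 (also STIP; AT2G33880; chromosome 2, 14341355 to 14343796, minus strand, 3 exons), which supports embryo growth and the start of meristem growth in the seedling, was barely detected. Its adjusted read counts were 0, 0 and 0 in al24567, 3.91, 0 and 2.04 in ring1a1b, and 2.11, 1.11 and 7.12 in Col-0. It had 0 reads in al24567 and 11 in Col-0, 8 of them in Col-0 replicate 3. With a floor of 3 counts over the al24567 group, WOX9 was 3.38-fold lower there than in Col-0. That figure takes the Col-0 reads as exact and is not a lower limit. The fitted difference was -1.91 (log2, 95% interval -3.42 to -0.40). The call was at the margin (adjusted p = 0.0454, limma). Leaving out Col-0 replicate 3 (adjusted p = 0.22) or Col-0 replicate 1 (0.0748) ended it, as did leaving out any 1 of the al24567 libraries (0.0827 to 0.0857), and DESeq2 did not make it (0.0692).

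WOX13 (AT4G35550; chromosome 4, 16875521 to 16877451, minus strand, 3 exons) is the most widely expressed member and is known from fruit patterning and tissue regeneration. Its adjusted read counts were 307, 315 and 315 in al24567, 248, 249.7 and 232 in ring1a1b, and 250.4, 232 and 242 in Col-0. The 3 al24567 libraries were above all others, and ring1a1b overlapped Col-0. WOX13 rose by 0.37 ± 0.10 in al24567 against Col-0 (adjusted p = 0.0089), or 1.29-fold, and kept its call in all 16 alternatives. Its 3' end overlaps AT4G35540 on the opposite strand by 78 bases. Whether the counting used strand is not given, so reads of the overlap cannot be told apart, and AT4G35540 went the other way, with 75.3 ± 5.42 in al24567 and 110 ± 3.44 in Col-0 (-0.54 ± 0.18, adjusted p = 0.0219).

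The remaining tested members were not called in al24567. WOX1 (AT3G18010; chromosome 3, 6160733 to 6163453, minus strand, 4 exons), which promotes the outgrowth of the leaf blade together with WOX3, had 41.1, 21.4 and 27.9 adjusted reads in al24567, 56.4, 35.1 and 49.9 in ring1a1b, and 33.4, 48.4 and 52.6 in Col-0. Its libraries overlapped in every comparison, and the difference of al24567 from Col-0 was -0.58 ± 0.30 (adjusted p = 0.146). WOX5 (AT3G11260; chromosome 3, 3527280 to 3528440, plus strand, 2 exons), which marks the quiescent centre of the root tip, had 9.02, 9.47 and 1.31 in al24567, 17.5, 11.4 and 18.3 in ring1a1b, and 8.36, 16.7 and 8.38 in Col-0. The al24567 libraries of WOX5 were spread over and below the Col-0 ones (-0.89 ± 0.54, adjusted p = 0.212), and 1 library, al24567 replicate 3, held its only single-read value.

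Root tip markers stood beside these WOX5 values with 2 of 10 called higher and 1 called lower in al24567 (36.3% of all tested genes called), and 0 of 10 called in ring1a1b by limma (17.7%). Their summed adjusted counts ran from 1792 to 1983 in al24567, 1763 to 1799 in ring1a1b and 1733 to 1862 in Col-0. In al24567 the patterning genes SCR (0.41 ± 0.08, adjusted p = 0.000762) and SHR (0.38 ± 0.13, 0.0261) rose and the epidermal gene GL2 fell by 0.56 ± 0.10 (0.000285). The SHR call ended when Col-0 replicate 1 (0.0501), Col-0 replicate 3 (0.157) or al24567 replicate 1 (0.102) was left out. It also ended when only the 2 genotypes were compared (0.0565). Of the root stem cell genes, PLT1 stood at -1.24 ± 0.48 (0.0509), called when al24567 replicate 2 was left out (0.0131), and PLT2 at -0.08 ± 0.40, not called. Any part of these cell types in the WOX5 values was not tested.

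In ring1a1b, 0 of the 7 tested members were called against Col-0 by limma, where 17.7% of all tested genes were called. With library totals made equal, the calls over all genes were 2672 higher and 1156 lower, in place of 2331 and 1780. At an unadjusted p below 0.05 limma gave 1 member, WOX4, and edgeR and DESeq2 called 0 after adjustment. WOX4 differed by -0.48 ± 0.20 (95% interval -0.89 to -0.07, adjusted p = 0.107), and it was the 1 of the 7 tested members whose ring1a1b and Col-0 libraries did not overlap, against 35.3% of all tested genes. The 2 mutants were compared with the same Col-0 libraries, so their differences from Col-0 share that error.

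The width of the intervals set what could be seen in ring1a1b. WOX13 was the most precise, at 0.01 with a 95% interval of -0.21 to 0.23 on the log2 scale. WOX2 stood at 0.09 (-0.65 to 0.84), WOX1 at 0.07 (-0.57 to 0.70) and WOX14 at -0.15 (-0.86 to 0.56). For these genes a change of 2-fold in either direction lay outside the interval. WOX5 at 0.50 (-0.63 to 1.63) and WOX9 at -0.61 (-2.12 to 0.90) were too thinly covered for that. WOX1, WOX2, WOX9 and WOX13 turned sign with single libraries left out, within these intervals.

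**Figure D2:**
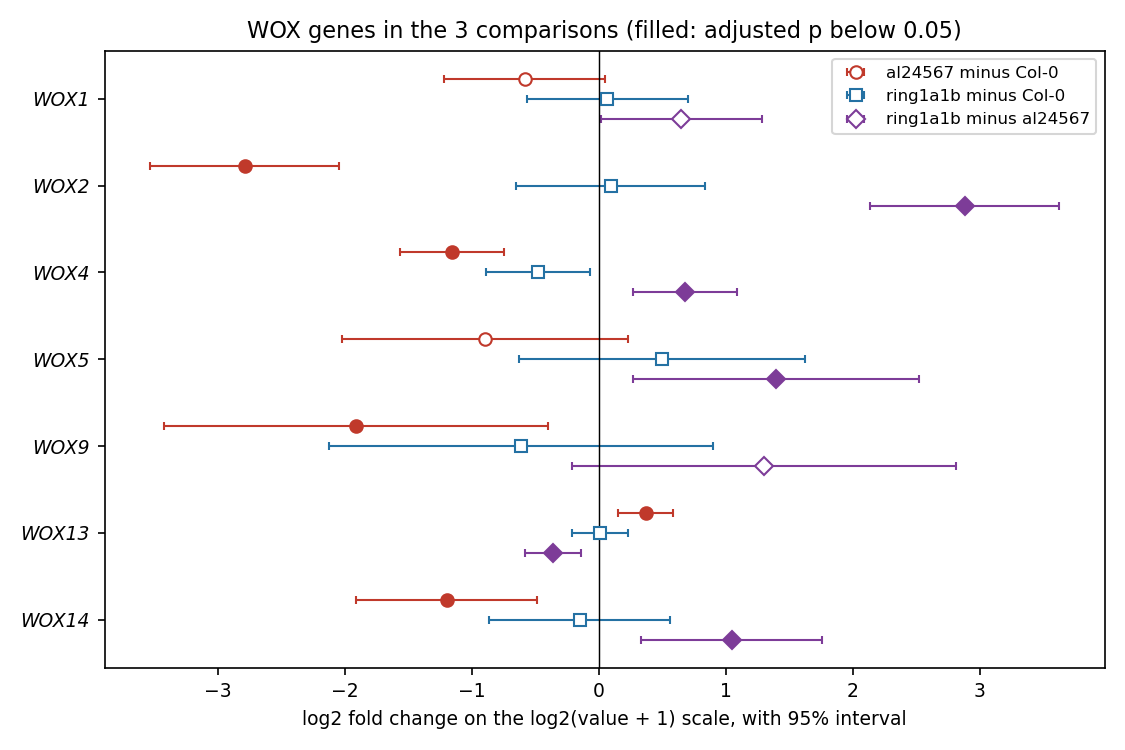
Log2 fold changes of the 7 tested WOX genes on the log2(value + 1) scale with 95% intervals, for each mutant against Col-0 and for ring1a1b against al24567; filled symbols mark an adjusted p below 0.05. WOX2 stands at -2.79 in al24567 and 0.09 in ring1a1b against Col-0, and the ring1a1b symbols are all open.

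The direct comparison of ring1a1b with al24567 tests the difference between the mutants. WOX2, WOX4, WOX14 and WOX5 were higher and WOX13 was lower in ring1a1b, 5 of 7, where 39.0% of all tested genes were called (20.0% higher and 18.9% lower). The libraries of the 2 mutants did not overlap for these 5, against 46.6% of all tested genes. WOX2 differed by 2.88 ± 0.35 (adjusted p = 3.2e-06) and WOX4 by 0.68 ± 0.20 (adjusted p = 0.00977), and both calls held in all alternatives.

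The other differences between the mutants were less settled. WOX14 was higher in ring1a1b by 1.05 ± 0.34 (adjusted p = 0.0199), a call lost without al24567 replicate 2 (0.0651), without al24567 replicate 3 (0.0609) and without ring1a1b replicate 1 (0.0956). WOX13 was lower in ring1a1b by -0.36 ± 0.10 (adjusted p = 0.0102), lost when library totals were made equal (-0.26, adjusted p = 0.0681), a scaling that moved the median of all genes in this comparison to 0.12 in place of 0.02. WOX5 was higher in ring1a1b by 1.39 ± 0.54 (adjusted p = 0.0471), a call lost in 12 of 16 alternatives, with 0.68 without al24567 replicate 3. WOX1 (0.65 ± 0.30, adjusted p = 0.0989) and WOX9 (1.30 ± 0.72, adjusted p = 0.168) were not called. The WOX9 difference rests on 6 reads in ring1a1b and 0 in al24567. Its 95% interval of -0.21 to 2.81 included no change. Both genes passed with 1 library left out, WOX1 without al24567 replicate 1 (0.038) and WOX9 without ring1a1b replicate 2 (0.0441).

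Levels of different members were compared per kilobase of the longest annotated transcript. WOX13 stood first in every genotype, with 226 ± 3.55 adjusted reads per kilobase in al24567, 176 ± 7.03 in ring1a1b and 174.5 ± 6.72 in Col-0. WOX4 stood second everywhere, with 36.2 ± 5.74 in al24567, 58.0 ± 2.79 in ring1a1b and 81.2 ± 8.57 in Col-0, and its libraries did not reach those of WOX13. In Col-0 the order went on with WOX2, WOX1, WOX14, WOX5 and WOX9, in which WOX1 and WOX14 overlapped and the other neighbours did not. The order of ring1a1b was the same down to WOX9, with overlap of WOX1 with WOX14 and of WOX14 with WOX5. In al24567 it ran WOX13, WOX4, WOX1, WOX14, WOX5 and WOX2, and from WOX1 down each overlapped its neighbour. WOX2 was thus at 6.07 ± 3.12 per kilobase and the sixth place in al24567, against 45.9 ± 8.30 in ring1a1b and 42.8 ± 5.07 in Col-0 at the third.

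**Figure D3:**
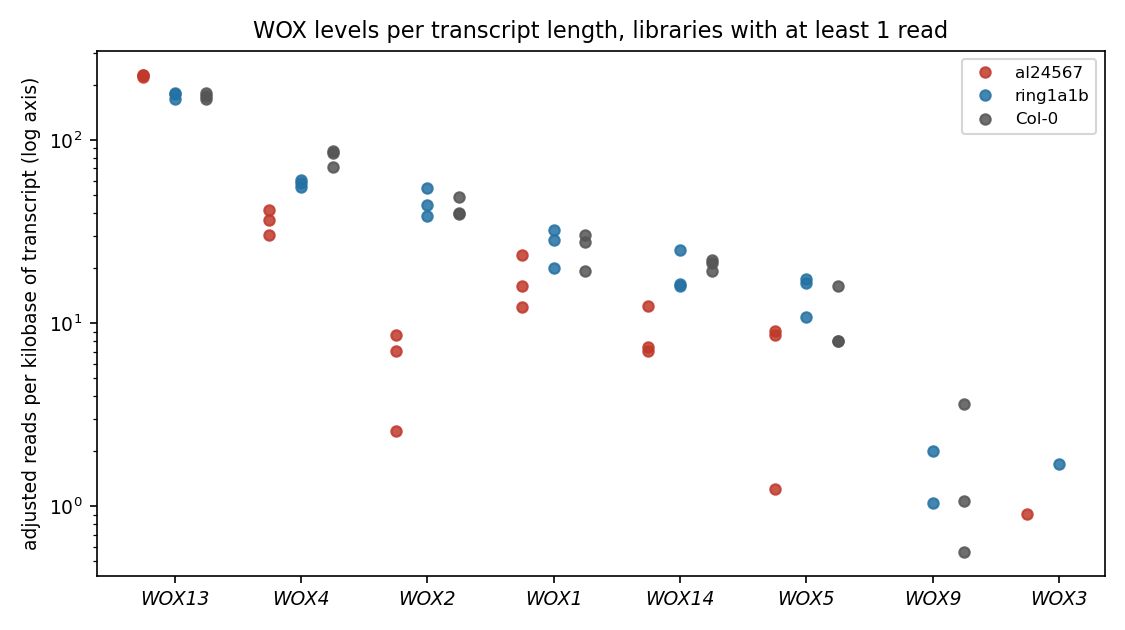
Adjusted reads per kilobase of transcript (log axis) of the WOX genes that had reads, 1 point per library with at least 1 read of al24567, ring1a1b and Col-0, in the order of the Col-0 levels. WOX13 is highest in all 9 libraries, and the al24567 points of WOX2 lie between 2.58 and 8.57, with those of Col-0 between 39.7 and 48.6.

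The make-up of the family differed between al24567 and the other genotypes, and for WOX4 also between ring1a1b and Col-0. WOX13 took 70.4% to 78.2% of the summed level per kilobase of the 10 members in al24567, 48.4% to 55.7% in ring1a1b and 46.8% to 52.8% in Col-0. WOX2 took 0.872% to 2.95% in al24567, 11.95% to 15.9% in ring1a1b and 11.2% to 13.0% in Col-0. The shares of ring1a1b and Col-0 overlapped for both of these genes. WOX4 took 10.4% to 13.2% in al24567, 15.5% to 17.9% in ring1a1b and 20.85% to 23.8% in Col-0, without overlap between any genotypes. The sum itself ran from 291 to 315 in al24567, 324 to 356 in ring1a1b and 343 to 374 in Col-0. Shares of 1 sum are not independent of each other.

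Of the 5 family genes that are not members, WOX6 and WOX10 had 0 reads. WOX11 and WOX12, of the intermediate clade and known from the start of new roots at wounds, were low but changed. WOX11 had 17.0, 9.69 and 18.7 adjusted reads in al24567, 6.78, 7.63 and 7.13 in ring1a1b, and 3.14, 6.26 and 2.46 in Col-0, and rose by 1.73 ± 0.45 in al24567 (adjusted p = 0.00563). WOX12 had 5.01, 1.11 and 2.26 in al24567, 4.83, 7.66 and 5.10 in ring1a1b, and 0.00617, 2.07 and 0 in Col-0. It rose by 2.21 ± 0.63 in ring1a1b (adjusted p = 0.0184), from 18 reads against 2 in Col-0, and was not called there by edgeR (0.0609) or DESeq2 (0.114). Leaving out Col-0 replicate 1 (0.0782), Col-0 replicate 3 (0.0749) or ring1a1b replicate 2 (0.0698) also ended the call. WOX7, a close copy of WOX5, had 0 reads in al24567, 7 in ring1a1b and 4 in Col-0, and was not called.

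Of 16 listed peptide ligands and receptors of stem cell signalling 15 were tested, CLV3 being the one without reads. By limma 1 rose and 1 fell in al24567, where 36.3% of all tested genes were called, and 0 were higher and 2 lower in ring1a1b, where 17.7% were. The median log2 fold change was 0.07 in al24567 and -0.03 in ring1a1b, with -0.02 over all tested genes in both. The receptor kinase BAM3, of the phloem, rose by 0.74 ± 0.09 in al24567 (1181 ± 107 against 705 ± 48.9 in Col-0). The peptide gene CLE41, whose product signals through PXY, was at 0.35 ± 0.16 in al24567 and not called by limma (adjusted p = 0.0916), but was called higher by edgeR (0.0336) and DESeq2 (0.035) and without al24567 replicate 1 (0.62, adjusted p = 0.00012). RPK2, a receptor-like kinase that limits the shoot meristem, fell in both lines, by 0.44 ± 0.08 in al24567 and by 0.46 ± 0.08 in ring1a1b, and the CLV1-related receptor BAM1 fell by 0.24 ± 0.07 in ring1a1b (adjusted p = 0.0274). The RPK2 calls held in every alternative, while that of BAM1 was lost with equal library totals (0.0778) and without any 1 of 5 libraries, the 3 of Col-0 and ring1a1b replicates 1 and 2 (0.0509 to 0.103).

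Of 15 partners and regulators of WOX proteins, 7 were called higher and 1 lower in al24567, where 36.3% of all tested genes were called. Their median difference was 0.22 (log2). The HAIRY MERISTEM proteins, GRAS-domain cofactors of WUS and WOX4, made up 3 of these: HAM1 rose by 0.67 ± 0.08, HAM3 by 0.44 ± 0.09 and HAM4 by 1.03 ± 0.17. HAM4 averaged 245 ± 41.7 in al24567 and 118 ± 10.02 in Col-0. WRKY2, which activates WOX8 in the zygote, rose by 0.64 ± 0.11 although WOX8 itself had no reads. The co-repressor TPR2 fell by 0.25 ± 0.07, and TPL, the TOPLESS founding member, stood at 0.13 ± 0.06 without a call. The meristem homeobox gene STM (18.2 ± 3.30 against 7.12 ± 0.71 in Col-0) and the floral gene AG (13.0 ± 2.48 against 4.15 ± 3.73) also rose. The AG difference of 1.90 (adjusted p = 0.0441) was not called by edgeR (0.0896) or DESeq2 (0.121) or without any 1 of the al24567 libraries (0.0763 to 0.117), and stood at 0.96 without Col-0 replicate 3 (0.271). STM (0.0192) missed the threshold when Col-0 replicate 2 (0.0553), al24567 replicate 1 (0.0664) or al24567 replicate 2 (0.0515) was left out. Of the 7 tested shoot meristem markers STM rose and CUC3, a boundary gene of the shoot tip, fell by 2.49 ± 0.45 (2.44 ± 1.44 against 17.5 ± 3.38 in Col-0, adjusted p = 0.000221), a call kept in every alternative, and the other 5 were not called. Flower markers, of which AG is 1, had summed counts of 76.4 to 124 in al24567, 30.7 to 71.1 in ring1a1b and 29.9 to 38.4 in Col-0, and 3 of the 5 tested were called higher in al24567. Beside AG these were SEP3 (1.52 ± 0.36, adjusted p = 0.0025) and AP3 (3.55 ± 1.34 against 0 reads in Col-0, adjusted p = 0.0168), the last not called by DESeq2 (0.0671) or when al24567 replicate 2 (0.0576) or 3 (0.0631) was left out. AP3 passed the filter on low values only with the al24567 libraries. In ring1a1b, where 17.7% of all tested genes were called, 1 of the 5 was called higher by limma, PI (16.3 ± 5.60 against 4.25 ± 0.91 in Col-0, adjusted p = 0.0118). The PI call was lost without ring1a1b replicate 1 (0.0643). LFY had no reads in al24567 and AP1 had none in al24567 or Col-0. Any part of floral tissue in the AG value was not tested.

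In ring1a1b, where 17.7% of all tested genes were called, 0 of the 15 partners were higher and 3 were lower by limma, TPR4 by -0.26 ± 0.07, WRKY2 by -0.37 ± 0.11 and the cytokinin response factor ARR10 by -0.33 ± 0.11. With library totals made equal, these 3 calls were lost (adjusted p from 0.0502 to 0.149) and the co-repressor gene TPR1 was called higher (0.26, adjusted p = 0.0161). By edgeR, TPR1 was also called higher (0.0472) and ARR10 was not called (0.0512). The TPR4 call was also lost without Col-0 replicate 2 (0.0636), that of WRKY2 without Col-0 replicate 1 or 3 or ring1a1b replicate 1 or 2 (0.0821 to 0.108), and that of ARR10 without Col-0 replicate 2 or 3 or ring1a1b replicate 1 or 3 (0.138 to 0.207). WRKY2 averaged 493 ± 49.0 in al24567, 244 ± 23.9 in ring1a1b and 315 ± 23.5 in Col-0, and ARR10 averaged 793 ± 65.5 in al24567, 438 ± 74.4 in ring1a1b and 547 ± 40.4 in Col-0.

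Among 9 genes that have been placed downstream of WOX proteins, 3 rose and 1 fell in al24567 (36.3% of all tested genes called) and 0 were called in ring1a1b by limma (17.7%), where the smallest p was that of TMO6 (0.31 ± 0.11, adjusted p = 0.073; 0.0408 by edgeR). The D-type cyclin gene CYCD3;3 rose by 0.96 ± 0.10, with 537 ± 25.9 in al24567 and 276 ± 9.46 in Col-0. Of the cytokinin response regulators that WUS represses in the shoot tip, ARR15 rose by 1.21 ± 0.34, while ARR5 (-0.03 ± 0.19), ARR6 (-0.06 ± 0.22) and ARR7 (-0.28 ± 0.19) were not called. The ARR15 call was lost without al24567 replicate 3 (0.0667). BAM3, also on this list, rose as given above. The vascular DOF factor gene TMO6 fell by 0.71 ± 0.11, with 178 ± 6.43 in al24567 and 292 ± 10.9 in Col-0.

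Of 14 genes of leaf blade growth and leaf polarity, with which WOX1 and WOX3 work, 5 rose and 3 fell in al24567, where 36.3% of all tested genes were called. ARF4, an auxin response factor of the lower leaf side, rose by 0.67 ± 0.08, and the upper side factor PHV rose by 0.36 ± 0.08. The leaf symmetry gene AS1 rose by 0.32 ± 0.10. ARF5 fell by 0.55 ± 0.10, and the lower side factors YAB1 and YAB3 fell by 0.32 ± 0.08 and by 0.35 ± 0.10. The YABBY genes went both ways, since YAB2 was called higher (0.32 ± 0.12, adjusted p = 0.0473, limma), and YAB5 was at 0.02 ± 0.11, not called. The YAB2 call was lost with equal totals (0.0844), with only the 2 genotypes compared (0.0785), without a filter (0.0553) and at a pseudocount of 0.1 (0.0531). It was also lost without any 1 of the Col-0 libraries or al24567 replicate 1 or 3 (0.062 to 0.224). In ring1a1b YAB1 rose by 0.27 ± 0.08 and ARF4 fell by 0.27 ± 0.08, with adjusted p of 0.0344 and 0.02, so that neither passed a threshold of 0.01. Without ring1a1b replicate 3 they stood at 0.16 and 0.0942, and without Col-0 replicate 3 at 0.0697 and 0.113. The YAB1 call also failed without Col-0 replicate 1 (0.131) or 2 (0.0782) or ring1a1b replicate 2 (0.0971), and that of ARF4 without ring1a1b replicate 2 (0.0557) and with equal totals (0.0981). In al24567, AS1 missed the threshold when Col-0 replicate 2 (0.0578), Col-0 replicate 3 (0.111) or al24567 replicate 2 (0.0689) was left out. YAB3 missed it when Col-0 replicate 2 (0.0587) or al24567 replicate 1 (0.0731) was left out. Both also missed it with only the 2 genotypes compared (0.0542 for AS1 and 0.069 for YAB3).

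**Figure D4:**
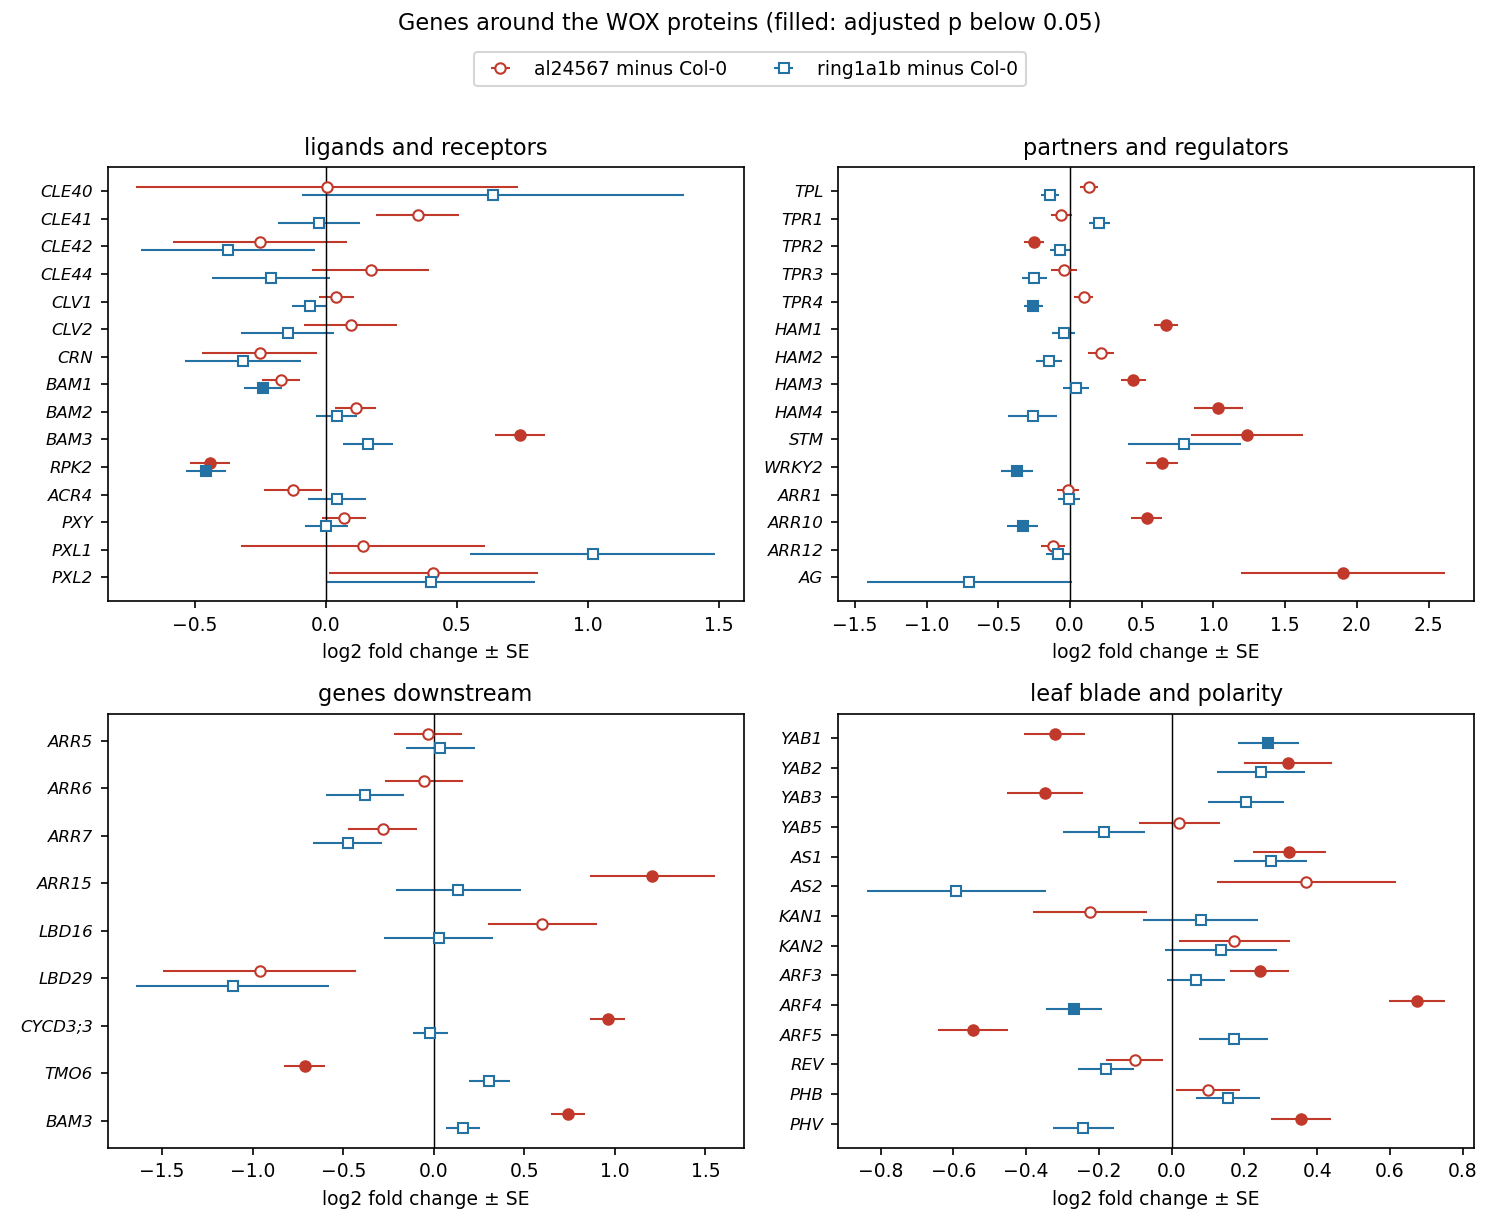
Log2 fold changes ± SE of the tested genes of 4 lists around the WOX proteins, for al24567 minus Col-0 and ring1a1b minus Col-0; filled symbols mark an adjusted p below 0.05. In al24567 the HAM genes, WRKY2 and CYCD3;3 lie right of 0, with HAM4 at 1.03, and TMO6 lies left at -0.71.

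The genes nearest to the members on the chromosome were read next to them. HMGB3, 983 bases from WOX14, was not called in al24567 (-0.03 ± 0.08), nor was MEE34, 360 bases from WOX5 (0.21 ± 0.12), nor the non-coding gene AT1G46554 at 14766 bases from WOX4 (0.09 ± 0.17). AT5G59330, 1266 bases from WOX2, averaged 29.3 ± 20.6 in al24567 and 19.2 ± 7.82 in Col-0 without a call. In ring1a1b it fell by 2.53 ± 0.68 (adjusted p = 0.0142, limma) where WOX2 was not called, although the AT5G59330 libraries overlapped Col-0. AT1G46554 rose in ring1a1b by 0.87 ± 0.17 (adjusted p = 0.0016, limma), without overlap, where WOX4 was not called. NUDT22, 5967 bases from WOX9, fell by 0.79 ± 0.17 in al24567. AT4G35540, which overlaps WOX13, fell there as given above.

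The genes whose pattern over the 9 libraries was most like that of a member were named by the root mean square difference of centred log2 values. For WOX2 they were AT4G16745 (0.273), the MADS-box gene AGL8, also known as FRUITFULL (0.275), and AGL87 (0.276). AGL8 averaged 2.47 ± 1.19 in al24567, 31.8 ± 8.54 in ring1a1b and 22.8 ± 3.87 in Col-0. For WOX4 the nearest was the histone deacetylase gene HDA14 (0.110), with 409 ± 36.7 in al24567, 707 ± 27.8 in ring1a1b and 871 ± 19.6 in Col-0. For WOX13 it was UNE5 (0.0321), for WOX14 AT5G41690 (0.185), for WOX5 HR2 (0.265) and for WOX9 AT4G05497 (0.467). The nearest genes of the low members WOX9 and WOX5 were themselves at few reads.

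Motifs linked to Polycomb or seed regulation were searched on both strands in the 250 bases before and 50 bases after each annotated gene start, with overlapping matches counted. GAGAGA was present in 6 of the 10 members (WUS, WOX2, WOX3, WOX8, WOX9 and WOX13) and in 29.2% of 27443 such windows. The telobox AAACCCTA was present in WUS only and in 6.22% of windows. The RY motif CATGCA, bound by seed regulators such as ABI3, was present in WUS, WOX1, WOX4 and WOX5 and in 9.72% of windows. WUS was the only member with all of them, and WOX14 had none.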

How the data were processed

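TRIzol was used to extract total RNA of whole seedlings, and libraries were read as pairs, per the labels' protocols. The submitters' processing notes name bcl2fastq, HISAT2, edgeR and TAIR10, and versions, counting tool and strand are not given in the sources used here. The deposited signal values are read counts adjusted by the authors with edgeR to a common library size; this was read from the values. Whole reads were recovered from them: 99.9991% of values were whole within 0.01 reads or a relative 1e-05, with a dispersion of 0.00826, and 25179 genes had reads.

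The main test was limma-trend (limma 3.58.1, R 4.3.3) on log2(value + 1) of all 9 libraries, on 23207 genes, those reaching a value of 1 in 3 or more libraries. Log2 fold changes are on that scale and understate changes of low genes; errors are moderated SE. Alternatives were edgeR 4.0.16 quasi-likelihood tests with TMM or RLE factors and DESeq2 1.42.0 on recovered reads, a pseudocount of 0.1, other filters, equal totals, 2 genotypes only, a replicate block, an adjusted p below 0.01, and each library left out.

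The members and lists were chosen with earlier results of these data known. Of the lists, up to 3 called genes per direction and line were named by smallest p. Further genes beside them were chosen after their values were seen (HAM3, STM, AG, TPL, ARR5, ARR6, ARR7, CLE41, TPR1, YAB2 and YAB5, and the markers CUC3, SCR, SHR, GL2, PLT1, PLT2, SEP3, AP3, PI, ABI3, EM1, EM6, CRC, OLEO1 and LEC2). Likeness and neighbours cover members called in any comparison. Symbol, chromosome and sequence come from RefSeq TAIR10.1, in which all 32548 identifiers matched, whereas the table holds no coordinates. CDF4, on the list of downstream genes, was not found by symbol and is not analysed here. Python 3.11.15 was used for tables and figures.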

Additional observations from a re-analysis of the deposited data

How the results depend on the processing

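The count of members called against Col-0 stayed within 1.5 times its value under all alternatives run, for al24567 (5) and ring1a1b (0). For ring1a1b against al24567 the 5 calls became 2 at an adjusted p below 0.01 (WOX2 and WOX4), and 3 to 6 with single libraries left out. Replicate numbers did not pair the libraries (correlations of deviations -0.02 to 0.04, 0 of 9 pairs over 0.1), and the replicate block gave 5, 0 and 5 members called for al24567, for ring1a1b and between the mutants. The uncalled differences of ring1a1b from Col-0 that turned sign with single libraries left out ranged from -0.124 to 0.264 for WOX1, -0.0419 to 0.207 for WOX2, -1.11 to 0.0388 for WOX9 and -0.0176 to 0.0449 for WOX13. Depth limits the members with the fewest reads over 9 libraries, WUS and WOX8 (0), WOX3 (3), WOX9 (17) and WOX5 (101), and of the other family genes WOX6 and WOX10 (0), WOX7 (11), WOX12 (28) and WOX11 (77). Of the list counts, the 8 leaf blade genes called in al24567 became 4 at an adjusted p below 0.01, 5 with only 2 genotypes, and 4 to 7 with single libraries left out. In ring1a1b the 2 ligand and receptor genes, 3 partners and 2 leaf blade genes became 1, 0 and 0 at an adjusted p below 0.01, 1, 1 and 2 with equal totals, and 1 to 2, 1 to 3 and 0 to 2 with single libraries left out, and the 0 downstream genes became 1 with equal totals and by edgeR and 0 to 2 with single libraries left out. Over all genes, ring1a1b had 2366 calls at an adjusted p below 0.01 in place of 4111, and ring1a1b against al24567 had 6030 higher and 3247 lower with equal totals in place of 4652 and 4388. The causes were not tested.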
